A study of Mus musculus with 267 samples.

Results

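The genes described here encode the receptor chains, kinases and transcription factor through which macrophages sense interleukin-4 (IL-4). The 7 members are Il4ra, Il2rg, Il13ra1, Jak1, Jak3, Tyk2 and Stat6, out of 21951 protein-coding genes of the GENCODE vM21 annotation of mm10. A region, site or peak was taken for a member when its centre lay within 50 kb of the start of that gene. This gave 117 of 67742 regions in the table of C57, 88 of 54022 in BALB, 97 of 68932 in NOD, 88 of 60175 in PWK and 77 of 54755 in SPRET. The C57 time course held 126 of 77955 regions, the EGR2 time course 62 of 30675 sites and the tables of Egr2 genotypes 5 of 4677 sites.

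Chromatin immunoprecipitation sequencing was performed in mouse bone marrow-derived macrophages (BMDMs), without treatment (basal) or with IL-4 at 20 ng/mL. BMDMs of C57 (strain C57BL/6J), PWK (strain PWK/PhJ), BALB (strain BALB/cJ), SPRET (strain SPRET/EiJ) and NOD mice (strain NOD/ShiLtJ) were sampled basally and at 24 h, and C57 also at 1 and 6 h. BMDMs of Egr2flfl mice, whose Egr2 alleles are flanked by loxP sites, and of LyzMCreEgr2flfl mice, which also express Cre recombinase from the lysozyme M locus in myeloid cells, were sampled basally and at 24 h. H3K27ac marks active enhancers and promoters, H3K4me2 marks enhancers and promoters, H3K4me3 marks promoters, and RNA polymerase II (Pol II) marks transcribed or poised sites. Each strain held 2 libraries of H3K27ac, H3K4me2 and H3K4me3 basally and at 24 h, and C57 had 2 of H3K27ac but none of the other histone marks at 1 and 6 h. Each Egr2 genotype held 2 libraries of H3K27ac and of H3K4me2 at either time, and H3K4me3 was not analysed there. Pol II had 2 to 4 libraries a group, except for 1 library at 1 h in C57 and 1 in each group of the Egr2 genotypes. Deletion of Egr2 in the LyzMCreEgr2flfl cells was not checked here, because the tables of these genotypes hold only EGR2-bound sites. All values are from bulk cultures, in which fewer cells of a type and less signal per cell cannot be told apart.

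IL-4 binds the receptor alpha chain encoded by Il4ra. The chain then pairs with the common gamma chain (Il2rg), which also serves the receptors of other interleukins, or with the IL-13 receptor chain encoded by Il13ra1. The kinases JAK1, JAK3 and TYK2 sit on these chains and phosphorylate the receptor, STAT6 docks there, is phosphorylated in turn, pairs with itself and enters the nucleus. STAT6 dimers favour a TTC N4 GAA motif, and in macrophages they drive genes of alternative activation. The members lie at chr7:125552120-125579474 (Il4ra, plus strand), chrX:101264378-101268255 (Il2rg, minus strand), chrX:36112110-36171259 (Il13ra1, plus strand), chr4:101152367-101265282 (Jak1, minus strand), chr8:71676296-71690575 (Jak3, plus strand), chr9:21104068-21131243 (Tyk2, minus strand) and chr10:127642986-127660957 (Stat6, plus strand). Distances below run from the start of the member, with negative values upstream. Several windows also hold starts of other genes, among them Lrp1 21.8 kb upstream of Stat6, Unc13a 4.5 kb upstream of Jak3 and Pde4a 34.5 kb upstream of Tyk2.

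Some libraries stood apart before any member was looked at. Over C57 time-course regions with a mean of at least 16 normalized tags, the median H3K27ac was 86.2 and 86.3 tags in the basal libraries, 57.2 and 28.9 at 1 h, 67 and 71.2 at 6 h and 60.3 and 59.7 at 24 h. In BALB the medians were 88.9 and 79.8 basally and 85.1 and 46.7 at 24 h. Replicate 2 at 1 h in C57 and replicate 2 at 24 h in BALB were thus low over the whole table, and the C57 H3K27ac and Pol II libraries of the strain comparison are the same ones that enter the time course. Library totals ran from 4691644 to 29050468 tags. Summed basal H3K27ac at the starts of 8 macrophage markers was 2820 to 4780 tags across strains (7 markers had a start region in SPRET). The highest sums were 2.7 for fibroblast, 13.1 for dendritic cell, 122 for B cell and 239 for neutrophil markers. Each of these highest sums rests on 1 marker, so they are not comparable with sums over 7 or 8 markers. The 239 tags are S100a8 in NOD, where its mean was above that of Mertk and below those of the other macrophage markers. No T cell or mast cell marker had a start region. At 24 h the macrophage sum was 2050 tags in C57 against 4780 basally, 2300 against 3980 in BALB, 2550 against 3990 in NOD, 2010 against 2820 in PWK and 2330 against 2910 in SPRET. The macrophage sum was thus lower at 24 h in every strain, as most member regions were, and its part in the member values was not tested. Some single markers overlapped, among them Itgam in PWK (297 and 290 against 359 and 211 tags) and Cd68 in SPRET (633 and 563 against 743 and 390). The sum of IL-4 response markers, 5 of 8 in each strain, was higher at 24 h, with Arg1 counted only in C57 and Ccl17 only in the other strains. It went from 508 to 698 tags in C57, 385 to 571 in BALB and 444 to 651 in NOD. In PWK it went from 277 to 485 and in SPRET from 719 to 872. Not every marker rose. The mean of Mrc1 went from 245 to 226 tags in C57 and from 405 to 389 in SPRET, with overlapping libraries. In C57, Pparg and Ccl24 overlapped as well, while Arg1 went from 63.5 to 195. Egr2 was higher without overlap in all 5 strains.

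The sequences below lie under the STAT6 peaks that appeared near members after 1 h of IL-4 in C57. They are shown because STAT6 is itself a member and these were the first peaks gained within 50 kb of member starts. A peak counted as gained when it overlapped no peak of the basal list. Of 27 STAT6 peaks near members at 1 h, 5 were gained (18.5%), while 35.6% of all 24376 STAT6 peaks were gained. They lay 36.8 and 45.1 kb downstream of the Il4ra start, 30.7 kb into Jak1, 48.2 kb upstream of Jak3 in Unc13a, and 5.4 kb into Tyk2. The nearest start was Il21r for the peaks downstream of Il4ra and Colgalt1 for the one upstream of Jak3. Which gene these peaks serve was not tested. Each sequence is mm10 reference, plus strand, so that alleles of the other strains are not shown, and capitals mark the fixed bases of a TTCNNNNGAA match.
Il4ra +36.8 kb, chr7:125588790-125588989, intergenic: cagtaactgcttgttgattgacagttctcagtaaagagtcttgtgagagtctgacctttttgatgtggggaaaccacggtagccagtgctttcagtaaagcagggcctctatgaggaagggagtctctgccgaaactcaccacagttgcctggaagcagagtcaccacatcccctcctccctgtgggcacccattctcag
Il4ra +45.1 kb, chr7:125597166-125597365, intergenic: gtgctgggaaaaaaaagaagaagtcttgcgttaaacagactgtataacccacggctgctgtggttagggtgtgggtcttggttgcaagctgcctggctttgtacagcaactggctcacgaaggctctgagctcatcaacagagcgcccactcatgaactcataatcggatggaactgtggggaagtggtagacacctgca
Jak1 +30.7 kb, chr4:101234484-101234683, intron of Jak1: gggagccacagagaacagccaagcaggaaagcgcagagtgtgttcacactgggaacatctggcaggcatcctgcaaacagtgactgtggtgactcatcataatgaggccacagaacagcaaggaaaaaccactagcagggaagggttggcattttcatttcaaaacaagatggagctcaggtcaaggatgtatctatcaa
Tyk2 +5.4 kb, chr9:21125742-21125941, intron of Tyk2: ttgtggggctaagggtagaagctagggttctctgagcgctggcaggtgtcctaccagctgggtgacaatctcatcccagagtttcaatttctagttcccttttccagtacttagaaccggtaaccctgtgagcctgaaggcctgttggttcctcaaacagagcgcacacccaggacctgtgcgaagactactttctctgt
Jak3 -48.2 kb, chr8:71628071-71628100, exon of Unc13a, the bases around the match: gacctgcttaTTCtgggGAAgcttggggct
Only the Jak3 -48.2 kb window, of 200 bases like the others, held a match. The motif, which reads alike on both strands, occurred in 21.1% of windows of 200 bases at all STAT6 peaks of 1 h and in 38% of the gained ones. Near members it was found at 0 of 52 basal peaks, 1 of 27 at 1 h, 1 of 35 at 6 h and 3 of 54 at 24 h, where the shares over all peaks were 5.67%, 21.1%, 14.6% and 12.3%. The Il4ra +36.8 kb and Il4ra +45.1 kb peaks stayed in the C57 lists of 6 and 24 h and were also in the 24 h lists of NOD, PWK and SPRET. EGR2 peaks of 1, 6 and 24 h and PU1 peaks overlapped both, and a PPARg peak overlapped the first. The Tyk2 +5.4 kb peak was in the 1 h list alone among the C57 lists.

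The starts of the 7 members differed widely in signal, and Stat6 led them in H3K27ac in every strain. All regions span 1000 bp, so levels are compared per equal length. In basal C57 the H3K27ac level was 836 ± 211 normalized tags at the Stat6 start, 302 ± 91.6 at Il4ra, 208 ± 55.1 at Jak1, 206 ± 100 at Jak3, 95 ± 91.1 at Il2rg, 80.5 ± 27.2 at Tyk2 and 23 ± 17.4 at Il13ra1 (mean ± SD, n = 2). Stat6 stood clear of Il4ra by more than both spreads, while Il4ra, Jak1 and Jak3 followed each other within their spreads, as did Il2rg and Tyk2. Pol II gave 348 ± 34.3 tags at the Stat6 start (n = 4), 118 to 154 at Jak1, Tyk2, Il4ra and Jak3, 38.9 ± 28.9 at Il2rg and 17.3 ± 15.5 at Il13ra1. The promoter mark H3K4me3 spread less, with 576 ± 57.9 at Jak3, 524 ± 42.1 at Stat6, 387 to 462 at Tyk2, Il4ra and Jak1, and 128 ± 28.6 and 121 ± 64.8 at Il13ra1 and Il2rg. Il13ra1 therefore had a marked promoter with little H3K27ac or Pol II, and no start region was listed for it in BALB, NOD or SPRET. Jak3 had no start region in SPRET.

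Stat6 encodes the transcription factor itself, and its start was the member start with the highest H3K27ac before and after IL-4. H3K27ac at the Stat6 start (chr10:127642468-127643468) was 985 and 687 tags basally and 399 and 322 at 24 h in C57. The corresponding values were 804 and 608 against 530 and 261 in BALB, 813 and 673 against 542 and 354 in NOD, 633 and 538 against 485 and 315 in PWK, and 648 and 624 against 571 and 435 in SPRET. Both IL-4 libraries were below both basal libraries in each of the 5 strains. How many of all regions separate in this way was not counted, here or at the regions below. The start of Mertk, a macrophage marker, was lower in the same way in all 5 strains. The log2 differences were -1.2 ± 0.31 in C57, -0.91 in BALB, -0.76 in NOD, -0.58 in PWK and -0.35 in SPRET, and none passed limma at an adjusted p of 0.05 (0.128 in C57). Pol II at this start did not separate the groups in C57, with 333, 400, 333 and 328 tags basally and 239, 369 and 248 at 24 h.

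**Figure D1:**
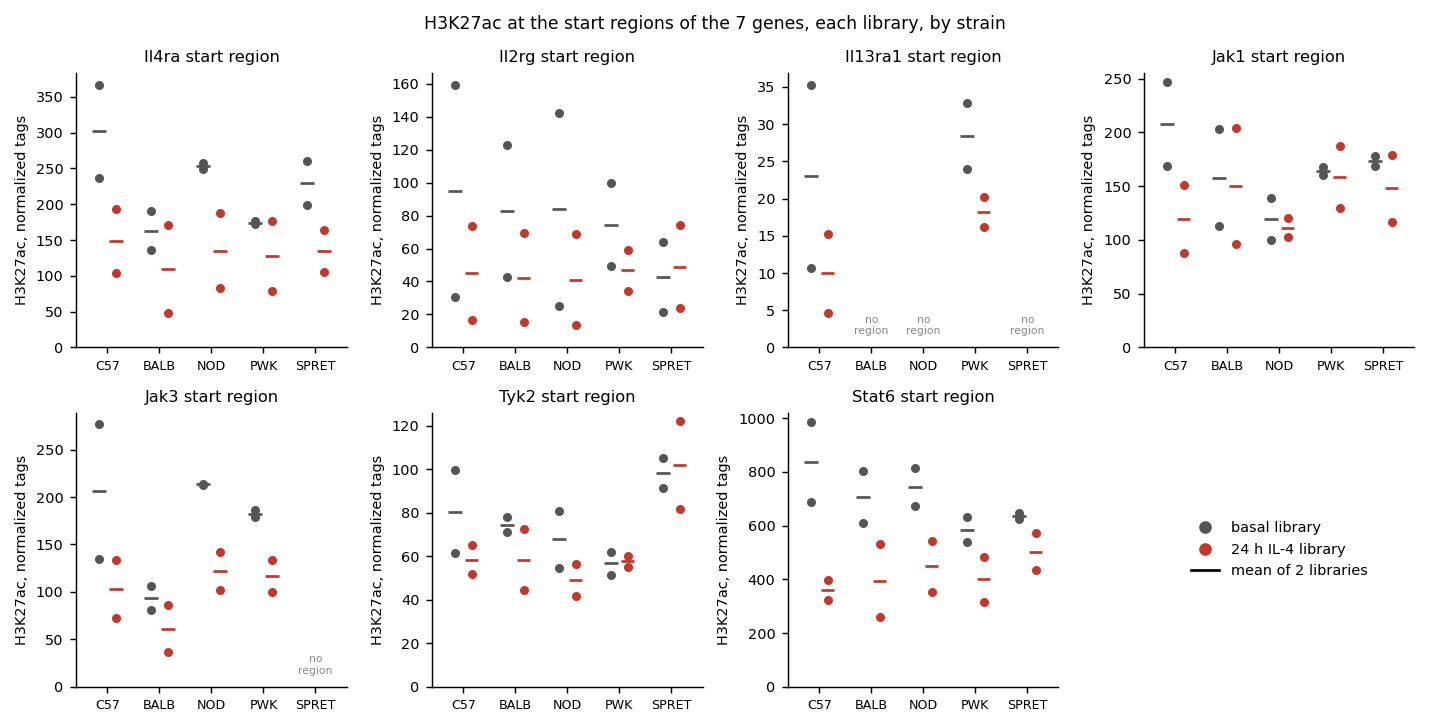
H3K27ac at the start regions of the 7 members, in normalized tags per 1000 bp, for each library of each strain (grey, basal; red, 24 h IL-4; bars, mean of 2 libraries). Stat6 has the highest level in every strain. Its 24 h libraries lie below its basal ones in all 5, a separation whose share over all regions was not counted. The Il2rg and Tyk2 libraries of both conditions overlap in every strain.

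Il4ra encodes the chain that binds IL-4. Its start (chr7:125551679-125552679) held 367 and 237 tags of H3K27ac basally and 194 and 104 at 24 h in C57, 258 and 249 against 188 and 82.7 in NOD, and 260 and 199 against 164 and 106 in SPRET. The 24 h libraries lay below the basal ones in these 3 strains. In BALB (190 and 136 against 171 and 48.1) and PWK (177 and 172 against 177 and 78.3) they overlapped, and without the low replicate 2 of 24 h the BALB difference turned to 0.09. In C57 the difference was -1.05 ± 0.43 (adjusted p = 0.218, limma). Pol II at the Il4ra start in SPRET was 149, 126 and 76.5 tags basally and 57.5, 65.7 and 51.7 at 24 h. The difference of -0.95 ± 0.27 had an adjusted p of 0.137, and of 0.00453 with the replicate number as a block, for which the SPRET Pol II libraries passed the pairing check.

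The other receptor chains and the kinases showed smaller or more variable differences at their starts. The Il2rg start, for the shared gamma chain, gave 159 and 30.7 tags basally and 73.8 and 16.4 at 24 h in C57, and the groups overlapped in all 5 strains, with replicate 1 well above replicate 2 in each group. The Il13ra1 start gave 35.3 and 10.7 tags basally and 15.3 and 4.59 at 24 h. Jak1, whose kinase sits on Il4ra, held 247 and 169 tags basally and 151 and 88 at 24 h in C57, and its groups overlapped in the other 4 strains. Jak3, the kinase of the gamma chain, held 277 and 135 against 134 and 72.2 in C57, 213 and 214 against 142 and 102 in NOD, and 179 and 186 against 134 and 100 in PWK. Of these, NOD and PWK had all 24 h libraries below the basal ones, while in C57 the higher 24 h library was level with the lower basal one. Tyk2 overlapped in every strain, with 99.7 and 61.3 against 51.8 and 65 in C57 and 91.5 and 105 against 122 and 81.8 in SPRET. The plot of H3K27ac at the start regions shows these libraries.

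Over all regions near members, H3K27ac at 24 h was lower in more places than it was higher, and the Stat6 window held 8 of the 16 lower regions of C57. By the fold rule, under which group means plus 1 tag differ at least 2.5-fold and either mean reaches 16 tags (8 for Pol II), 16 of 117 member regions (13.7%) were lower in C57, where 7.55% of all regions were. The same count was 8 of 88 in BALB (background 5.13%), 6 of 97 in NOD (5.14%), 5 of 88 in PWK (3.01%) and 1 of 77 in SPRET (0.939%). Higher regions numbered 0 in C57, BALB and NOD, 1 in PWK and 2 in SPRET, against 3.46%, 2.84%, 3.24%, 3.1% and 2.64% of all regions. Many of the lower C57 regions lay nearest to the start of a gene that is not a member. This was Lrp1 for the Stat6 regions from -39.8 to -21.9 kb, and Pde4a for the lower Tyk2 regions. It was Unc13a for the lower Jak3 regions and Nsmce1 for the Il4ra region at -48.5 kb. Which gene these regions serve was not tested. The C57 count was 8 with median-ratio scaling, 25 without basal replicate 2 and 26 without 24 h replicate 1. The BALB count was 32 without 24 h replicate 1, 3 without the low replicate 2 and 3 with median-ratio scaling, the NOD count was 14 without basal replicate 1 and 15 without 24 h replicate 1, and the PWK count was 9 without 24 h replicate 1 and 1 with median-ratio scaling. The median difference of the member regions was -0.62 in C57, -0.68 in BALB, -0.62 in NOD, -0.41 in PWK and -0.27 in SPRET, beside -0.28, -0.3, -0.2, -0.18 and -0.09 over all regions, so part of each member value is shared by the whole table.

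Divided by gene, the Stat6 window had a median difference of -1.09 over 30 regions in C57, of which 29 were below 0 and 8 met the fold rule. Its medians were -0.85 in BALB, -0.7 in NOD, -0.63 in PWK and -0.36 in SPRET, with 3, 2, 1 and 0 regions meeting the rule. The Il13ra1 window was as low, with -1.11, -1.32, -1.15, -0.77 and -0.71 in the same order of strains, but over only 3 to 6 regions. Il4ra gave -0.43, -0.75, -0.75, -0.1 and -0.4, and Il2rg -0.84, -0.92, -0.35, -0.31 and -0.08. The kinases gave 0.3, -0.2, -0.24, -0.2 and -0.15 for Jak1, 0.08, -0.41, 0.03, -0.09 and 0.01 for Jak3, and -0.33, -0.39, -0.66, -0.23 and -0.01 for Tyk2. Each strain has a table of its own with other regions and was fitted apart, so that differences between strains were not tested.

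**Figure D2:**
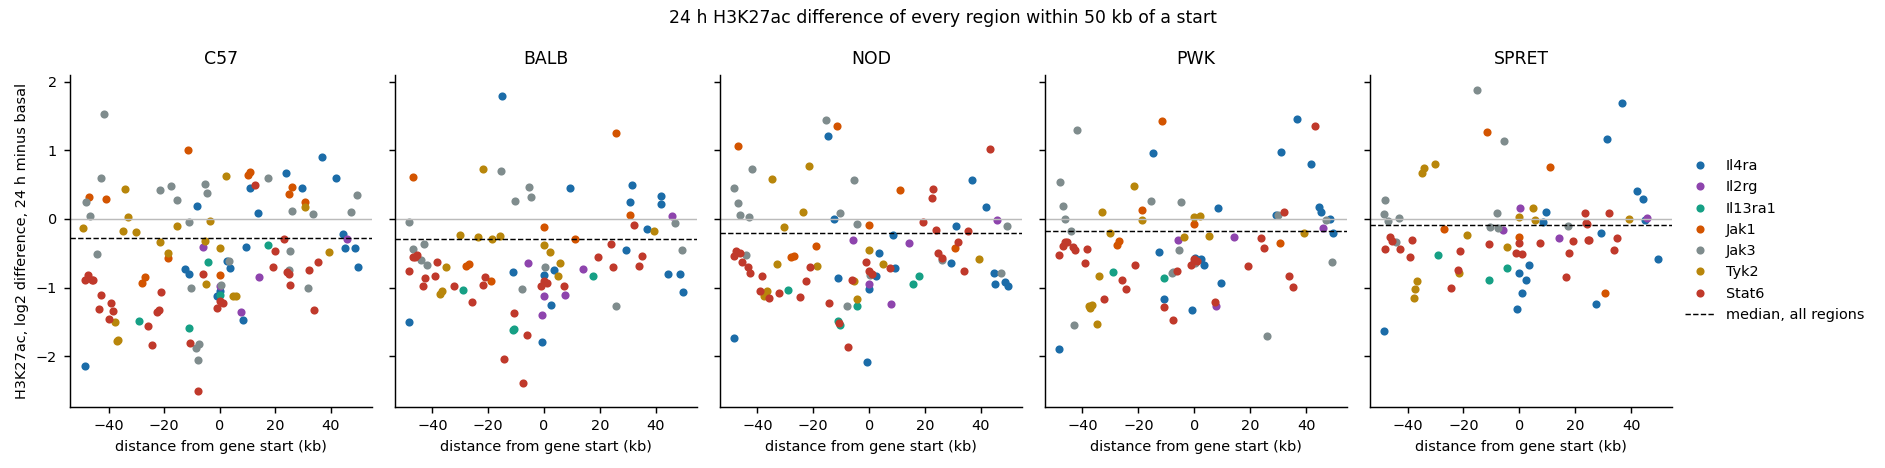
Log2 difference of H3K27ac (24 h IL-4 minus basal, on normalized tags plus 1) of every region within 50 kb of a member start, against its distance from that start in kb, with 1 panel per strain and 1 colour per gene. The dashed line is the median of all regions of the table (-0.28 in C57), and most Stat6 regions fall below it, 29 of 30 being below 0 in C57.

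The Stat6 window held a run of upstream regions that were lower after IL-4 in most strains. The region at -7.7 kb (chr10:127634780-127635780, intergenic) gave 149 and 232 tags basally and 21.2 and 47.2 at 24 h in C57. It gave 165 and 223 against 49 and 25.7 in BALB, 182 and 238 against 73.8 and 43.3 in NOD, and 136 and 200 against 55.9 and 62 in PWK, with no region listed there in SPRET. The groups did not overlap in any of the 4 strains. In BALB the fall of 2.4 ± 0.7 passed limma (adjusted p = 0.0318), and in C57 the difference of -2.51 ± 0.51 did not (0.115). The region at -10.9 kb (chr10:127631599-127632599, intergenic) gave 481 and 385 against 129 and 116 in C57 and 344 and 359 against 320 and 229 in SPRET, with differences of -1.8 ± 0.32 and -0.37. A region at -14.2 kb, listed in BALB and NOD, went from 60.3 and 83.4 to 21.1 and 12.9 in BALB (-2.04 ± 0.6, adjusted p = 0.0331). These 2 BALB calls, at -7.7 and -14.2 kb, were the only H3K27ac calls of that strain near a member, against 0.653% of all BALB regions called as lower, and edgeR on recovered reads made 0 calls and DESeq2 made 1. Leaving out 1 BALB library at a time gave 0 to 18 calls, and the fall at -7.7 kb held in 1 of 4 such fits.

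Upstream of Il4ra, Il13ra1 and Tyk2, single regions were lower as well. The region 48.5 kb upstream of Il4ra (chr7:125503160-125504160, nearest start Nsmce1) gave 160 and 199 tags basally and 43.3 and 36.1 at 24 h in C57, and 117 and 108 against 31.7 and 39.9 in SPRET. Its groups did not overlap in any of the 5 strains, a separation whose share over all regions was not counted. The differences were -2.15, -1.51, -1.73, -1.89 and -1.63. The fall in SPRET passed limma (adjusted p = 0.036) and was the 1 member call of that strain, where 0.192% of all regions were called as lower, but it was lost when any 1 of the 4 libraries was left out and under median-ratio scaling. The region 11 kb upstream of Il13ra1 (chrX:36100581-36101581) gave 130 and 111 against 43.3 and 35.4 in C57 (-1.59 ± 0.4, adjusted p = 0.123) and was lower without overlap in the other 4 strains too, by -0.86 to -1.62. The region 37.2 kb upstream of Tyk2 (chr9:21167922-21168922, near the Pde4a start) gave 744 and 608 against 205 and 184 in C57 (-1.78 ± 0.3, adjusted p = 0.108) and was lower in all 5 strains. In C57, NOD and PWK limma called 0 member regions, against 0.0%, 0.0% and 0.0482% of all regions called as lower. With the replicate number as a block it called more in each, and those counts stand below under the dependence on processing. Same-numbered H3K27ac libraries correlated there (r of 0.47, 0.492 and 0.441), but the numbers are not known to pair cultures. Without the block, at an unadjusted p under 0.05 there were 35, 14 and 12, of which 35, 14 and 11 were lower, while 22%, 12.4% and 10.6% of all regions passed in either direction and 15.1%, 6.91% and 5.41% as lower. edgeR made 0 calls in each and DESeq2 15, 2 and 0, where it called 5.3%, 1.73% and 0.749% of all regions.

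Few regions near members went the other way. A region 36.8 kb downstream of the Il4ra start (chr7:125588448-125589448, nearest start Il21r), between Il4ra and Il21r and over the STAT6 peak whose sequence is given above, held little H3K27ac basally. Its values were 16.3 and 17.1 tags basally and 33.1 and 30.9 at 24 h in C57, 13.7 and 20.4 against 39.7 and 57.3 in PWK, and 7.69 and 5.93 against 30 and 19.4 in SPRET. The 24 h libraries lay above the basal ones in these strains, and the differences were 0.9 ± 0.46, 1.46 ± 0.54 and 1.7 ± 0.51, with adjusted p of 0.296, 0.316 and 0.133. In BALB (6.61 and 4.77 against 2.26 and 10) and NOD (9.97 and 24.6 against 23.1 and 24.8) the groups overlapped. Pol II there was 1.41, 1.4 and 3.79 tags basally and 5.75, 9.7 and 21.4 at 24 h in PWK. That difference of 1.96 ± 0.55 had an adjusted p of 0.105, and of 0.000614 with the replicate number as a block. In C57, Pol II went from 3.74, 1.6, 1.07 and 5.06 to 9.34, 20 and 7.7 (1.81 ± 0.55, adjusted p = 0.217), with an adjusted p of 0.0315 at 24 h in the blocked fit of the time course. In that time course only 1 of 3 libraries of 24 h correlated best with its own number. At the Jak1 -11.6 kb region, the second one past the fold rule in SPRET, H3K27ac was 6.84 and 5.27 tags basally and 22.9 and 10.8 at 24 h.

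At 24 h, in the fits of single strains, limma called Pol II near members at 2 regions, both upstream of Stat6 in PWK. The fit of the C57 time course is given further below. The fold rule for Pol II was met, in either direction, by 4 member regions in C57 (background 3.23%), 3 in BALB (6.84%), 3 in NOD (3.6%), 2 in PWK (3.59%) and 1 in SPRET (2.34%). At the Stat6 -10.9 kb region Pol II was 101, 113 and 115 tags basally and 43.1, 44.2 and 53.9 at 24 h in PWK, a fall of 1.21 ± 0.26 (adjusted p = 0.0278, limma). At the Stat6 -7.7 kb region it was 34.6, 24.5 and 38.6 against 7.91, 10.8 and 6.84, a fall of 1.82 ± 0.37 (adjusted p = 0.0231). These were the 2 member calls of PWK (2.27% of 88 regions), and none of the other strains had one in its own fit. In PWK itself limma called 169 of 60175 regions as lower and 868 as higher. Over the 5 tables together 0.723% of regions were called in either direction. Both PWK calls were lost when any 1 library was left out, and edgeR (adjusted p of 0.0291 and 0.0135) and DESeq2 (0.00437 and 0.00563) called the same 2 regions. These tools called 1.99% and 2.42% of all PWK regions. In C57 the Stat6 -10.9 kb region had 89.2, 97.1, 108 and 101 tags basally and 26.7, 41 and 41 at 24 h (-1.45 ± 0.32, adjusted p = 0.0702, and 0.0348 with the replicate block). In C57, however, only 1 of 3 libraries correlated best with its own number. With the replicate block the count of calls was 8 in PWK (of them 3 higher), 10 lower in SPRET and 1 in C57. These blocked counts have no share of all regions beside them, so they do not show a change particular to the members. At an unadjusted p under 0.05 Pol II gave 12 regions in C57 (10.3%), 4 in BALB (4.55%), 7 in NOD (7.22%) and 15 in SPRET (19.5%), where 8.82%, 7.62%, 7.65% and 13% of all regions passed. edgeR made 0 calls in each, and DESeq2 1, 0, 0 and 2, the latter beside 2.42% of all regions in SPRET.

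H3K4me2 and H3K4me3 near members had no call by limma. The median H3K4me2 difference of the member regions was -0.77 in C57, -0.66 in BALB, -0.38 in NOD, -0.26 in PWK and -0.54 in SPRET, beside -0.69, -0.63, -0.3, -0.18 and -0.48 over all regions. That of H3K4me3 was -0.14, -0.13, -0.23, -0.16 and -0.07 in the same order, beside 0.11, -0.06, -0.02, 0.09 and 0.0. limma called 0 member regions for either mark in any strain, where 0.159% and 0.0115% of the regions of the 5 tables were called in either direction. At an unadjusted p under 0.05 there were 47 regions for H3K4me2 in C57, 28 in SPRET, 7 in NOD and 0 in BALB and PWK, where 34%, 32.4%, 8.37%, 1.87% and 4.79% of all regions passed. These were 40.2% of the member regions in C57 and 36.4% in SPRET. For H3K4me3 there were 26 in C57 (22.2%, beside 19.5% of all regions), 5 in BALB and NOD, 4 in SPRET and 0 in PWK, beside 6.31%, 5.41%, 6.17% and 4.75%. edgeR made 0 calls for H3K4me2 and 1 each in NOD and SPRET for H3K4me3, and DESeq2 made 18 for H3K4me2 in C57 (15.4%, beside 13% of all regions) and 0 elsewhere. At the Stat6 start H3K4me3 was 554 and 494 tags basally and 411 and 502 at 24 h in C57, where the groups overlapped. At the Stat6 -7.7 kb region H3K4me2 was 49.8 and 55.6 tags basally and 28.6 and 11.7 at 24 h in C57, the 1 member region of any strain that met the fold rule for this mark, where 1.27% of all C57 regions met it as lower. For H3K4me3 the rule was met as higher by 3 regions in the Stat6 window, all with Lrp1 as the nearest start. At -48.4 kb in C57 H3K4me3 went from 2.9 and 9.3 to 18.9 and 33.5 tags (2.05 ± 0.6, adjusted p = 0.186), where 0.639% of all regions met the rule as higher. In NOD it went from 4.3 and 7.0 to 13.9 and 42.6 at -48.3 kb and from 3.6 and 6.3 to 11.1 and 21.6 at -47.5 kb (adjusted p of 0.573 and 0.838), where 0.223% did.

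The C57 time course showed when the lower H3K27ac around Stat6 appeared. At 1 h limma called 30 member regions (23.8%) as lower and 0 as higher, where 8.36% of all regions were called as lower and 1.37% as higher. Stat6 supplied 23 of these with 32 regions tested, Tyk2 3 of 21, Il4ra 2 of 24, Il13ra1 2 of 6, and Il2rg, Jak1 and Jak3 0 of 5, 13 and 25. The Stat6 regions include those in introns of Lrp1, between 48.4 and 22.8 kb upstream. Of the 126 member regions, 49 overlap another one and share tags with it, so that the counts are not of independent regions. At 6 h 1 region was called as lower (background 2.46%) and 0 as higher (2.67%), and at 24 h 2 as lower (0.327%) and 0 as higher (1.13%). The median of the member regions was -1.14, -0.4 and -0.56 at the 3 times, beside -0.63, -0.14 and -0.22 over all regions. The count at 1 h was 24 without the low replicate 2 of 1 h, with 19 of these around Stat6, and 53 without replicate 1 of 1 h. It was 0 without basal replicate 2, 6 without basal replicate 1, 5 without either 6 h library and 10 with median-ratio scaling. The median of the Stat6 regions at 1 h lay between -2.42 and -1.81 when any 1 library was left out, and was -2.2 without basal replicate 2.

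At the Stat6 start H3K27ac was 995 and 691 tags basally, 269 and 172 at 1 h, 314 and 567 at 6 h and 401 and 317 at 24 h. The fall of 1.94 ± 0.59 at 1 h passed limma (adjusted p = 0.046) and those at 6 h and 24 h did not (0.388 and 0.3). The call at 1 h held in 2 of 8 fits that left out 1 library. The Stat6 -7.7 kb region was called at all 3 times. It held 16.2 and 28.2 tags at 1 h (-3.06 ± 0.58, adjusted p = 0.0118) and 18.5 and 26.8 at 6 h (-3.01 ± 0.58, 0.00706), and was at 0.0373 at 24 h, and these calls held in 7, 5 and 2 of 8 such fits. Pol II at this region was 3.83 and 1.46 tags at 6 h, below the 4 basal libraries (11.9 to 39.5 tags), a fall of 2.8 with an adjusted p of 0.036, which was 0.0537 with the replicate block and 0.0523 with median-ratio scaling. The Stat6 -10.9 kb region held 114 and 88.8 tags of H3K27ac at 1 h (-2.09 ± 0.54, adjusted p = 0.0268) and held its call in 4 of 8 fits. At 24 h, Pol II at the Stat6 -10.9 kb region had an adjusted p of 0.0456, and of 0.0672 by edgeR. These 2 regions were the member calls for Pol II, where 0.0449%, 0.137% and 0.174% of all regions were called as lower at 1, 6 and 24 h. At 1 h, with 1 library, Pol II gave 0 calls by limma and edgeR, 32 regions at an unadjusted p under 0.05 (25.4%, beside 10.0% of all regions) and 11 by DESeq2 (8.73%, beside 1.09%). At the Stat6 -21.9 kb region the difference at 1 h was -2.81 ± 0.55, and -2.33 ± 0.45 with the replicate block, where the pairing of 1 library could not be checked.

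Regions near the receptor genes and kinases were followed over the same times. At the Il4ra start H3K27ac went from 370 and 238 tags basally to 250 and 74 at 1 h, 293 and 274 at 6 h and 195 and 106 at 24 h, and no time was called. The Il4ra -48.5 kb region held 157 and 197 tags basally, 56.4 and 45.4 at 1 h (adjusted p = 0.0427), 83.9 and 66.9 at 6 h (0.197) and 42.4 and 36.1 at 24 h (-2.14 ± 0.53, 0.0494). The Il4ra +36.8 kb region held 21.6 and 15.2 tags at 1 h, 43.1 and 43.2 at 6 h and 34.8 and 30.9 at 24 h, so that the libraries of 6 and 24 h lay above all others. Its difference at 6 h was 1.32 ± 0.54 (adjusted p = 0.171). The region 11 kb upstream of Il13ra1 held 26.3 and 22.7 tags at 1 h (-2.25 ± 0.53, adjusted p = 0.02) and 30.8 and 37.7 at 6 h (0.0561). At the Jak1 -11.6 kb region H3K27ac was 50.8 and 65.1 tags at 6 h (2.65 ± 0.89, adjusted p = 0.0915), with 36.3 and 1.38 at 1 h. The Tyk2 -37.2 kb region held 180 and 123 tags at 1 h (-2.17 ± 0.55, adjusted p = 0.0257), and the Tyk2 start 25.5 and 23.4 (0.0652).

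**Figure D3:**
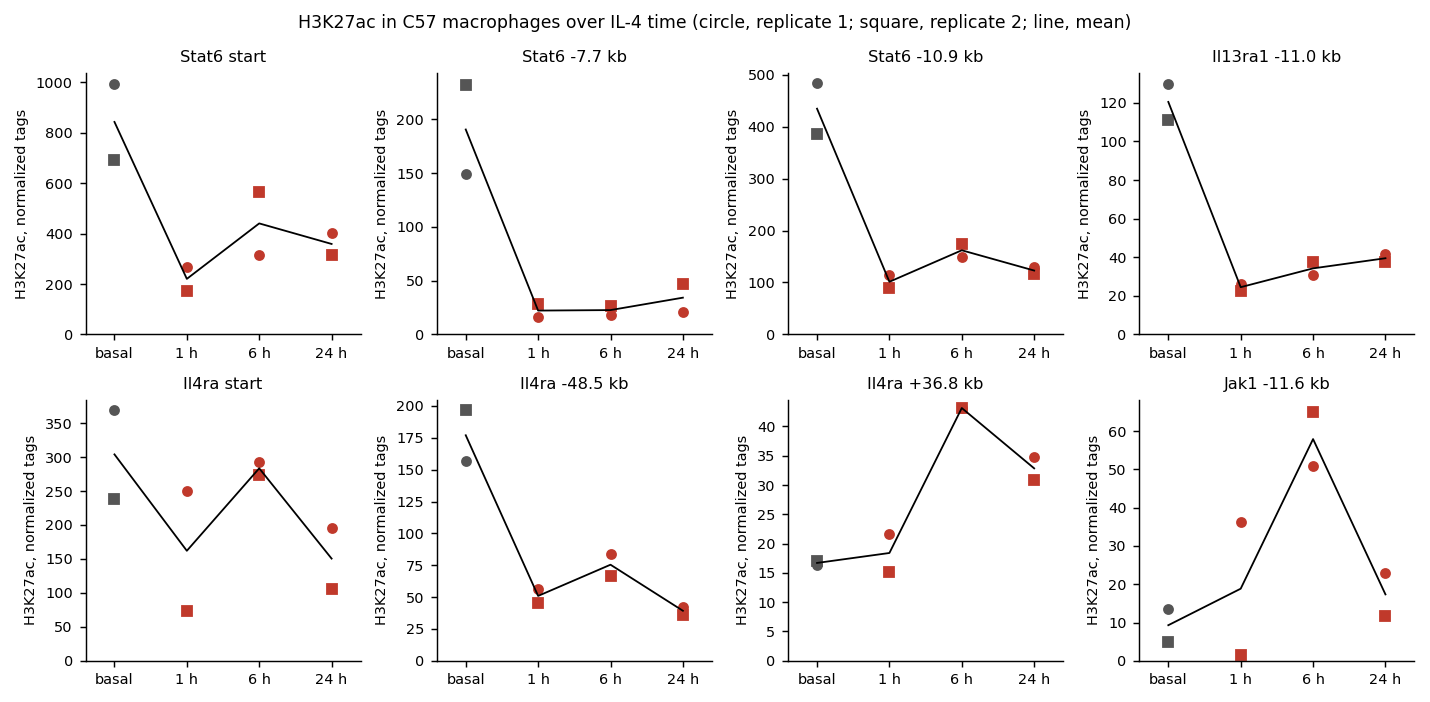
H3K27ac in normalized tags per 1000 bp at 8 regions near members in C57, basally and after 1, 6 and 24 h of IL-4 (circle, replicate 1; square, replicate 2; line, mean). The Stat6 -7.7 kb region stays between 16.2 and 47.2 tags at all IL-4 times, and the Il4ra +36.8 kb region is highest at 6 h with 43.1 and 43.2 tags.

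Genes whose start H3K27ac followed Il4ra and Stat6 most closely were sought over the 8 C57 libraries and 9438 genes. For Il4ra they were Sfmbt1 (Pearson r = 0.998), Smarcc2 (0.995) and Nedd4l (0.994), where the median r over genes was 0.836. For Stat6 they were Zfp51 (0.993), Agps (0.991) and Brip1 (0.99), with a median of 0.769. The 8 libraries share depth and enrichment across genes, and the values are a description.

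Among the other genes of the pathway, Cish had more H3K27ac at its start at 24 h in all 5 strains by the fold rule. A list of 28 other genes of the pathway held receptor chains, other kinases and STATs, adaptors, phosphatases and inhibitors, and 21 to 23 of them had a start region. By the fold rule, 3 were higher and 1 lower in C57, 2 higher in BALB and NOD, and 3 higher in PWK and SPRET. These were out of 23, 21, 22, 22 and 21 starts. Of all regions, 3.46%, 2.84%, 3.24%, 3.1% and 2.64% were higher by this rule, and 7.55% were lower in C57. limma called 0, 1, 0, 1 and 2 of these starts as higher and 0 as lower in the same order of strains. It called 0, 866, 39, 293 and 544 of all regions as higher, out of 67742, 54022, 68932, 60175 and 54755. These shares are over all regions and not over gene starts alone. Cish blocks STAT docking on receptors. H3K27ac at the Cish start went from 19.1 and 5.36 to 98.6 and 37.6 tags in BALB (adjusted p = 0.00219), from 34.3 and 15.7 to 195 and 121 in PWK (0.0283) and from 10.3 and 1.32 to 97.9 and 33.4 in SPRET (3.51 ± 0.67, 0.0141). In the C57 time course it was 68.8 and 20.3 at 1 h, 100 and 145 at 6 h (3.74 ± 0.63, adjusted p = 0.00303) and was called at all 3 times. Socs1, an inhibitor of the JAK kinases, rose in SPRET from 55.6 and 107 to 666 and 355 tags (2.64 ± 0.41, adjusted p = 0.00342), and in C57 its groups overlapped with 480 and 256 against 686 and 452. Socs1 also met the fold rule in BALB and PWK. Socs3, of the same family, overlapped in C57, BALB, NOD and PWK, with 35.3 and 17.3 against 33.1 and 7.62 tags in BALB. Stat5a and Socs2 met the fold rule in C57, where the adaptor Grb2 was the 1 lower gene with 366 and 268 against 124 and 124 tags. The median over the list was -0.45 in C57, -0.11 in BALB, -0.03 in NOD, -0.21 in PWK and -0.15 in SPRET.

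STAT6 itself had peaks near 6 of the 7 members in C57. In C57 the lists held 52 peaks near members basally, 27 at 1 h, 35 at 6 h and 54 at 24 h. No STAT6 peak lay within 50 kb of the Il2rg start in C57 at any time, nor in BALB, NOD or PWK, and SPRET had 1 basally. At 24 h the 54 peaks fell to Stat6 (19), Il4ra (15), Jak1 (9), Tyk2 (5), Il13ra1 (4) and Jak3 (2). Gained peaks numbered 7 of 35 at 6 h, where 29.8% of all peaks were gained, and 15 of 54 at 24 h, where 41.2% were. Of the 15, 6 lay near Jak1, 5 near Il4ra, 2 near Tyk2 and 1 each near Jak3 and Stat6. At 24 h in the other strains, 8 of 21 peaks were gained in BALB (background 51.5%), 7 of 26 in NOD (39.5%), 31 of 48 in PWK (67.2%) and 13 of 42 in SPRET (44.3%). The share near members was below the background in each of these lists, and lists grow with depth and enrichment. Within 20 kb of the starts the gained peaks of C57 were 1, 1 and 8.

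The other factors also gained peaks near members, for EGR2 and PU1 in C57 at a lower share than over all their peaks. EGR2, which IL-4 induces in macrophages, gained 14 of 38 peaks at 1 h, 12 of 32 at 6 h and 35 of 59 at 24 h in C57, where 43.6%, 43.5% and 72.5% of all were gained. PPARg, a nuclear receptor, gained 37 of 44 (84.0%), CEBPb, a factor of myeloid cells, 25 of 47 (53.8%), and PU1, which specifies macrophages and opens their enhancers, 9 of 113 (18.9%), with the share of all their peaks in parentheses. In the other strains CEBPb gained 17 of 30 peaks near members in BALB (62.1%), 34 of 58 in NOD (59.0%), 21 of 53 in PWK (28.6%) and 7 of 24 in SPRET (17.8%), which is a larger share near members than over all peaks in PWK (39.6%) and SPRET (29.2%). For EGR2 and PU1 the share near members was below that of all peaks in each of these strains. In SPRET it was 51.9% beside 72.6% for EGR2 and 5.94% beside 8.84% for PU1. For PPARg it was below in BALB, NOD and PWK (58.1% beside 70.0%) and above in SPRET (40.9% beside 38.9%). The Stat6 start is shown because a PU1 and a STAT6 peak met there, 0.4 kb upstream of the start.
Stat6 -0.4 kb, chr10:127642448-127642647, plus strand, mm10: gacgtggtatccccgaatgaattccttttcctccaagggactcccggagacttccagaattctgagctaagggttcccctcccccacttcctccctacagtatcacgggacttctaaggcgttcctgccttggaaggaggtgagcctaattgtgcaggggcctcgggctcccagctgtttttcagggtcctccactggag
STAT6 was listed there basally and at 24 h, and no TTCNNNNGAA match lay in these bases. EGR2 was listed at the Tyk2 start at all 4 times in C57 and at the Il4ra start at 1 and 24 h. A STAT6 peak lay at the Jak1 start basally and at 6 and 24 h, and at the Il4ra start basally and at 6 h.

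EGR2 tags in the C57 time course were highest 24 kb downstream of the Stat6 start, near the Nemp1 start, with 506 and 1039 normalized tags basally and 1262 and 918 at 6 h. At the Il4ra +36.9 kb site they were 11.2 and 5.37 tags basally, 19 and 50.1 at 1 h, 50.6 and 62.1 at 6 h and 34.6 and 39.4 at 24 h, so that all IL-4 libraries lay above the basal ones. The differences were 1.86 ± 0.76, 2.69 ± 0.76 and 2.1 ± 0.76. At Jak1 +30.1 kb they went from 4.21 and 130 basally to 300 and 394 at 6 h (3.72 ± 1.08). limma called 0 of 62 sites at any time, against 0.0%, 0.0% and 0.0% of all 30675 sites at 1, 6 and 24 h. At an unadjusted p under 0.05 there were 4, 3 and 1 (6.45%, 4.84% and 1.61%, beside 3.54%, 3.81% and 3.38% of all sites), with the Il4ra +36.9 kb site among them at each time, and edgeR and DESeq2 made 0 calls.

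Only 5 sites near members were among the 4677 EGR2 sites, induced by 24 h of IL-4, that were measured in the Egr2 genotypes. They lay at -14.8, +2.5 and +36.9 kb of Il4ra and at -46.9 and -23.6 kb of Stat6, and none at the other members. The nearest start was Il21r for the +36.9 kb site and Lrp1 for the Stat6 sites. At Il4ra +36.9 kb (chr7:125588844-125589144) STAT6 tags in Egr2flfl cells were 6.19 and 1.2 basally and 28.6 and 10.6 at 24 h, a rise of 2.22 ± 0.74 (adjusted p = 0.0456, limma), where 11.8% of all sites rose. In LyzMCreEgr2flfl cells they were 4.46 and 1.84 basally and 13.4 and 4.51 at 24 h (1.18, adjusted p = 0.663). The interaction, the difference between these changes, was -1.04 ± 1.04 (adjusted p = 0.8), so the genotypes were not shown to differ. PPARg tags at 24 h were 20.5 and 12.6 in Egr2flfl cells and listed at 0 in both LyzMCreEgr2flfl libraries (adjusted p = 0.155). For the contrast of genotypes at 24 h limma called 0 of the 5 sites for STAT6, against 0.0214% of all sites, and 0 for PPARg, against 0.0%. At an unadjusted p under 0.05 there were 1 and 3, beside 15% and 14.3% of all sites, and edgeR and DESeq2 made 0 calls for both.

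H3K27ac at the Il4ra +36.9 kb site had the lowest adjusted p of the 5 sites and 6 targets between genotypes at 24 h. It was 28.1 and 33.9 tags basally and 46.2 and 56.5 at 24 h in Egr2flfl cells, and 19.1 and 21.9 basally and 23.9 and 21.5 at 24 h in LyzMCreEgr2flfl cells. The level at 24 h was lower by -1.14 ± 0.3 in LyzMCreEgr2flfl cells (adjusted p = 0.0121), and 23.2% of all sites were called as lower. H3K27ac was already apart basally. H3K4me2 followed the same order at 24 h, with 27.9 and 38.3 against 13.7 and 23.1 tags, CEBPb with 23 and 13.8 against 3.39 and 6.43, and PU1 with 29.1 and 38.3 against 23.4 and 22.2, and none of these was called. In Egr2flfl cells CEBPb held 8.47 and 28.6 tags basally, so its basal and 24 h libraries overlapped. At Il4ra +2.5 kb H3K27ac was 222 and 284 against 273 and 252 tags at 24 h, where the genotypes overlapped.

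**Figure D4:**
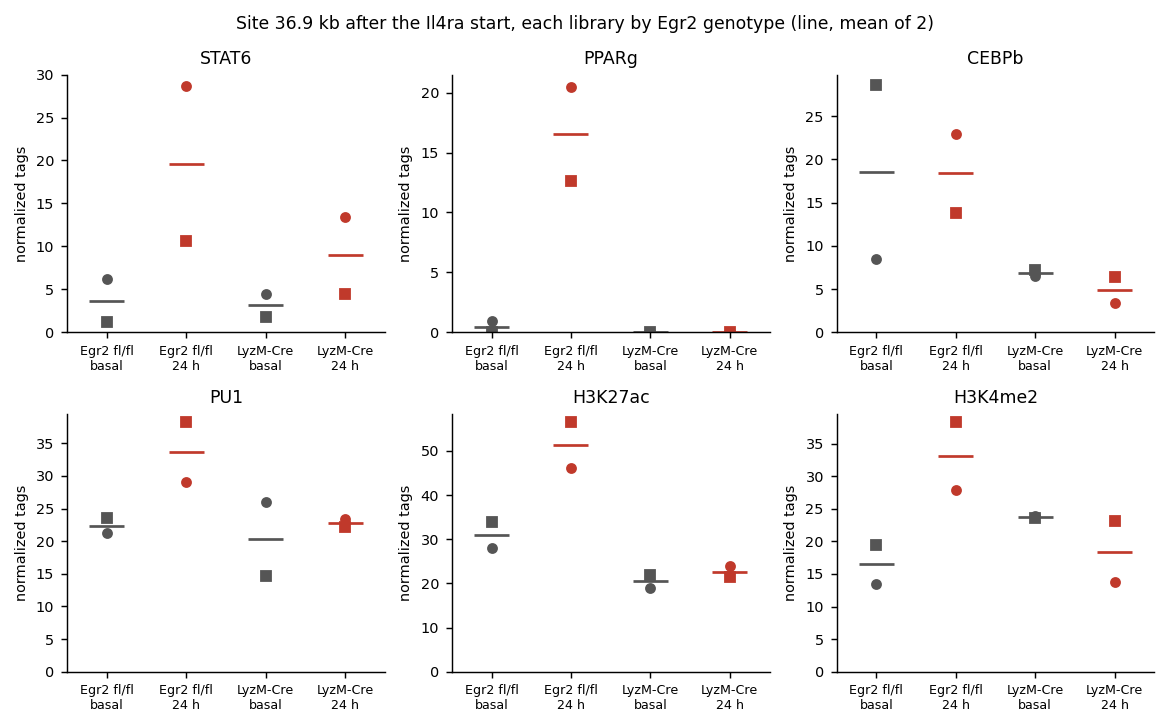
Normalized tags of STAT6, PPARg, CEBPb, PU1 (per 300 bp), H3K27ac and H3K4me2 (per 1000 bp) at the Il4ra +36.9 kb site in Egr2flfl and LyzMCreEgr2flfl BMDMs, basally and at 24 h of IL-4, with 1 point per library. At 24 h the H3K27ac libraries of Egr2flfl cells hold 46.2 and 56.5 tags and those of LyzMCreEgr2flfl cells 23.9 and 21.5. PPARg is listed at 0 in both LyzMCreEgr2flfl libraries of 24 h. The nearest gene start is that of Il21r, and H3K27ac is also lower basally in LyzMCreEgr2flfl cells.

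At Il4ra -14.8 kb (chr7:125537141-125537441) PU1 tags in Egr2flfl cells rose from 6.8 and 10.9 basally to 28.3 and 31.5 at 24 h (1.68 ± 0.43, adjusted p = 0.0247), where 8.19% of all sites rose. In LyzMCreEgr2flfl cells they were 7.71 and 4.06 basally and 7.8 and 8.58 at 24 h. The genotypes differed at 24 h by -1.75 ± 0.43 (adjusted p = 0.0178, background 9.36%), as they did for H3K4me2, with 21.5 and 18.6 against 4.33 and 7.69 tags (-1.62 ± 0.52, adjusted p = 0.0263, background 8.94%). H3K4me2 was already apart basally, with 8.11 and 8.17 tags in Egr2flfl cells and 2.82 and 3.5 in LyzMCreEgr2flfl cells. At Stat6 -23.6 kb (chr10:127619217-127619517), in an intron of Lrp1, CEBPb at 24 h was 20.6 and 11.4 tags in Egr2flfl cells and 0 and 1.07 in LyzMCreEgr2flfl cells (-3.5 ± 1.02, adjusted p = 0.0208, background 8.25%), a call that edgeR, DESeq2 and median-ratio scaling did not make. H3K27ac at this site fell with IL-4 in LyzMCreEgr2flfl cells, from 244 and 299 to 159 and 184 tags (-0.66 ± 0.22, adjusted p = 0.0462, background 4.08%). In Egr2flfl cells it was 238 and 290 basally and 205 and 285 at 24 h. No interaction was called at any of the 5 sites for any target, and each of the genotype calls named here was lost when at least 1 library was left out.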

How the data were processed

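Bowtie2 alignment by the authors was to a genome for every strain, with positions then converted to mm10, and HOMER was used for tags and peaks. The deposited signal is the number of tags per region, which the authors scaled to 10000000 tags of a library, in 1000 bp around centres of accessible regions, in 300 bp around the site for factors in the Egr2 genotypes, and within the peak for EGR2. The deposited peak score and count come from lists that the authors made for each group from peaks reproducible between replicates. Groups came from the sample labels. A total of 155 libraries had table columns, and 4 further value columns that matched no label were not used. Multiplied by the library total, 100% of 7268918 values were whole reads within 0.1 read, so 1 normalized tag stood for 0.469 to 2.91 reads. None of 99 replicate pairs agreed within sampling noise (chi-square per degree of freedom of 1.5 to 19.7). Where replicates are not stated to be separate animals, p-values measure only the spread between libraries.

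Regions, sites and peaks centred within 50 kb of a member start were taken, and 89.4% of 12060 regions annotated as promoters lay within 1 kb of a GENCODE start. With R 4.3.3, the moderated test of limma 3.58.1, with a trended prior, was fitted on log2(normalized tags + 1) over all regions of a table, with Benjamini-Hochberg adjustment and a threshold of 0.05. The pseudocount understates the change of low regions. Strains were fitted apart, time courses over all times, and Egr2 genotypes with an interaction with IL-4. Peaks sharing 1 bp or more were taken as overlapping. Alternatives were a pseudocount of 5, filters at 16 or 32 tags, a fold of 2, median-ratio scaling, a replicate block, leaving out each library, windows of 20 kb, an overlap of 100 bp, lists of equal length, and edgeR 4.0.16 and DESeq2 1.42.0 on recovered reads. Scaling to library totals does not correct for differing shares of tags inside regions. Tests were tried on simulated data with known changes. Tables and plots used Python 3.11.15, pandas 2.3.3, numpy 2.4.6, scipy 1.17.1 and matplotlib 3.10.9.

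Pairing was checked by correlating the deviations of same-numbered libraries from their group means. With 3 shared numbers, the Pol II libraries of C57 (lowest r = 0.118), PWK (0.201) and SPRET (0.224) and of the time course at 24 h (0.109) passed 0.1 in every pair, and blocked values stand beside named results whose call they changed. In PWK and SPRET 3 of 3 libraries correlated best with their own number, but in C57 and in the time course at 24 h only 1 of 3 did. At 6 h the time course had a lowest r of 0.071, and its 1 library at 1 h could not be checked. Blocked Pol II values of C57 thus rest on a pairing that was not shown. The other groups share fewer numbers. Named regions were the start region of each member, its distal region with the most H3K27ac, regions called or past the fold rule without overlap, STAT6 peaks gained at 1 h and peaks at starts. The members, lists and rules were chosen with earlier results of these data known.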

Additional observations from a re-analysis of the deposited data

Results flagged for a closer look

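In basal C57 the 4 Pol II libraries held 333, 400, 333 and 328 normalized tags at the Stat6 start, and the gap of the highest to the next was 0.931 of the whole range. At the Stat6 -46.1 kb region they held 240, 246, 326 and 245 tags, with a gap of 0.93 of the range. These were 2 of 16 regions examined in this group of 4 libraries, chance alone sets apart about 1 in 20 groups, and the high libraries differed between the 2 regions.

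At several regions all 24 h libraries lay above the basal ones in 1 strain and below them in another. These differences between strains were not tested. Pol II at Il4ra +49.8 kb differed by 0.26 (log2) in PWK, -0.43 in NOD and -0.46 in SPRET. H3K4me2 at the Jak1 start differed by 0.17 in NOD and -0.73 in C57, and at Stat6 -6.2 kb by 0.27 in NOD, -0.54 in C57, -0.82 in BALB and -0.62 in PWK, where the median over all regions was -0.3 in NOD and -0.69 in C57. H3K4me3 differed by 0.62 in NOD and -0.83 in SPRET 31 kb downstream of the Il4ra start, and by 0.7 in NOD and -0.49 in C57 at Stat6 -43.4 kb, from values of at most 7.41 tags. At the start of the adaptor gene Grb2, H3K27ac differed by 0.59 in NOD (140 and 175 basally, 284 and 197 at 24 h), against -1.33 in C57, -0.35 in PWK and -1.0 in SPRET.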

How the results depend on the processing

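Of 1165 alternative values for 101 results at named regions, 997 kept direction and side of the threshold, 60 lost and 76 gained a call, and 32 changed direction. The cause of these changes was not tested. The counts in this section are of member regions alone. With no share of all regions beside them, they do not show a change particular to the members. With 2 libraries a group, limma had few degrees of freedom, and lists of peaks cannot be compared library by library.

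Fold-rule counts for H3K27ac at 24 h moved as follows. Leaving out 1 library gave 0 to 1 higher and 18 to 26 lower regions in C57, 0 to 0 and 3 to 32 in BALB, 8 to 15 lower in NOD, 1 to 3 and 4 to 9 in PWK, and 1 to 2 and 1 to 5 in SPRET. A fold of 2 gave 32 lower in C57, 14 in BALB, 21 in NOD, 11 in PWK (with 3 higher) and 6 in SPRET. Median-ratio scaling gave 8 lower in C57, 3 in BALB and 1 in PWK, with 3 higher in PWK. A pseudocount of 5 gave 0 higher and 3 lower in PWK and 1 higher in SPRET, no filter gave 1 higher in BALB and 8 lower in PWK, and a minimum of 32 tags gave 0 higher in SPRET.

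limma counts at 24 h with the replicate block were 49 (C57), 8 (BALB), 31 (NOD), 7 (PWK) and 7 (SPRET) for H3K27ac, 1 (C57), 7 (NOD), 8 (PWK) and 10 (SPRET) for Pol II, 28 for H3K4me2 in SPRET, and 26 (C57), 1 (BALB), 1 (NOD) and 12 (PWK) for H3K4me3. Except for the Pol II libraries with 3 pairs, the numbers were shared by 2 pairs. These name libraries and are not known to pair cultures. Same-numbered H3K27ac libraries correlated at 24 h (r of 0.261 to 0.492). With 2 libraries in each group this is 1 correlation per strain, and not a check of each library. Leaving out 1 library gave 0 to 18 calls for H3K27ac in BALB, 0 to 1 in NOD and PWK and 0 to 0 in SPRET, 0 to 0 for Pol II in PWK, and for H3K4me2 0 to 79 in C57, 0 to 45 in BALB, 0 to 37 in NOD and 0 to 11 in SPRET. DESeq2 gave 15, 1 and 2 for H3K27ac in C57, BALB and NOD, 1 and 2 for Pol II in C57 and SPRET and 18 for H3K4me2 in C57. edgeR gave 0 for H3K27ac in BALB and 1 for H3K4me3 in NOD and SPRET, a filter on low values gave 1 for H3K4me3 in NOD, and median-ratio scaling gave 0 for H3K27ac in SPRET.

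In the C57 time course, H3K27ac calls at 1, 6 and 24 h were 0 to 53, 0 to 10 and 0 to 11 with 1 library left out, 49, 8 and 10 with the replicate block, and 10 and 3 at 1 and 6 h with median-ratio scaling. At 6 h a pseudocount of 5 and a filter each gave 2 and DESeq2 gave 7, and at 24 h edgeR gave 0 and DESeq2 6. Pol II calls were 0 to 3, 0 to 1 and 0 to 1 with 1 library left out and 1, 0 and 2 with the replicate block, 1 and 0 at 1 and 6 h with median-ratio scaling, 11 and 2 by DESeq2, and 0 at 24 h by edgeR. EGR2 calls were 0 to 6 at 1 h and 0 to 2 at 6 h with 1 library left out, and 1 at 6 h with a pseudocount of 5 and with the replicate block.

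At the 5 genotype sites, leaving out 1 library gave 0 to 1 calls for each contrast named in the report. STAT6 with IL-4 gave 2 calls with a pseudocount of 5 and with the replicate block, and 0 with median-ratio scaling and DESeq2. Between genotypes at 24 h, a filter gave 1 for PPARg and 0 for CEBPb and H3K4me2, median-ratio scaling 0 for CEBPb and 2 for H3K27ac, the replicate block 2 for H3K27ac and H3K4me2, edgeR 0 for CEBPb, and DESeq2 0 for CEBPb and H3K4me2. PU1 with IL-4 gave 0 with median-ratio scaling, and H3K27ac with IL-4 in LyzMCreEgr2flfl cells 0 by DESeq2.

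Gained peaks within 20 kb numbered 1, 1 and 8 for STAT6 in C57, 2, 3, 15 and 4 in BALB, NOD, PWK and SPRET, 8, 7 and 15 for EGR2, 11 for PPARg, 14 for CEBPb and 3 for PU1. Lists of equal length gave 3 and 6 for STAT6 in BALB and PWK, 5, 6 and 1 for EGR2, 5 for PPARg and 3 for CEBPb.

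Log2 differences of H3K27ac that changed direction were small or rested on 1 library. With median-ratio scaling they were 0.14 at the Il4ra start at 6 h, 0.22, 0.14 and 0.13 at the Jak1 start in BALB, NOD and PWK, and 0.17 at Il4ra +36.8 kb in BALB, where edgeR gave 0.21 and DESeq2 0.15. Leaving out 1 library gave -1.72 to 0.09, -1.15 to 0.02 and -0.39 to 0.25 at the Il4ra start in BALB, PWK and C57 at 6 h. The Jak1 start ranged over -0.65 to 0.43 in BALB, -0.32 to 0.15 in NOD, -0.34 to 0.18 in PWK, -0.56 to 0.04 in SPRET and -0.53 to 0.01 in C57 at 6 h, the Jak3 start over -0.83 to 0.2 in C57 at 6 h, and the Tyk2 start over -0.1 to 0.16 in PWK and -0.26 to 0.31 in SPRET. Il4ra +36.8 kb ranged over -1.02 to 0.73 in BALB, -0.04 to 1.19 in NOD and -0.13 to 0.36 in C57 at 1 h, Stat6 -46.1 kb over -1.2 to 0.1 in BALB, -0.97 to 0.29 in PWK and -0.69 to 0.16 in SPRET, and Jak1 -27.9 kb over -1.44 to 0.06 in BALB, -0.89 to 0.12 in PWK and -0.82 to 0.09 in C57 at 6 h.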

Other observations

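Outside the members, Stat5a, which encodes another STAT that cytokine receptors with JAK kinases activate, gave 8.14 and 6.42 tags of H3K27ac at its start basally and 31.4 and 19.7 at 24 h in C57. The start of Socs2, an inhibitor of cytokine signalling, gave 8.82 and 7.13 tags basally and 57.7 and 34.8 at 24 h in C57, with an adjusted p of 0.0404 at 24 h in the C57 time course (limma). Socs3, an inhibitor of the same family, held 21.7 and 10.7 tags basally and 26.2 and 63.9 at 6 h, where the libraries did not overlap. The adjusted p of Cish at 24 h in the same course was 0.0348.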
